A study of Homo sapiens with 46 samples.

Results

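This account covers 10 genes of epithelial immune signalling, out of 62756 genes counted: the cytokines IL33 and IL18, the chemokines CXCL1, CXCL2, CXCL3, CXCL5, CXCL8 and CCL20, and the receptors IL7R and ACKR2. The list was chosen by measured RNA changes of IL33, IL7R and ACKR2 in single lines of these libraries, so the values of these 3 genes are given as a description and no test of them is reported. The other 7 were added by their role, and they carry the tests. All 10 were found in the count table, and 8 passed the filter on low counts. CXCL1 and CCL20 did not pass it, so 5 genes were tested: IL18, CXCL2, CXCL3, CXCL5 and CXCL8.

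RNA was sequenced from DLD-1, a widely used human line derived from a colorectal adenocarcinoma. The parental line (genotype WT) carried no tag. In each of 3 derived lines an auxin-inducible degron was fused to the N terminus of 1 endogenous lamin: Lamin A/C in the line called LAC here, Lamin B1 in LB1 and Lamin B2 in LB2. Auxin makes cells destroy a degron-tagged protein, and it was given at 1 mM, dissolved in DMSO, for 0, 16 or 96 h. Untagged parental cells received the same auxin times, as a control for effects of auxin itself. The 12 groups of line and time held 46 libraries, 4 in each of 10 groups and 3 each in LB1 at 0 h and LB2 at 96 h. Each replicate came from 1 well, so the p-values measure the spread between wells. Whether a tagged line is 1 clone, which ubiquitin ligase adaptor the cells carry and whether the 0 h wells received DMSO were not given in the sources used here. The tag acts on the protein, so the RNA counts do not show the depletion. The libraries held 479446 to 37309421 counts with a median of 11533218, and 6 were under 5000000: replicate 4 of the parental line, replicate 1 of LAC, replicate 2 of LB1 and replicates 1 and 4 of LB2, all at 0 h, and replicate 3 of LB2 at 16 h, the shallowest.

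IL-33 and IL-18 belong to the IL-1 family; epithelial cells store IL-33 in the nucleus and release it on damage, and IL-18 is made as a precursor that caspase-1 cleaves. CXCL1, CXCL2, CXCL3, CXCL5 and CXCL8 share a glutamate-leucine-arginine motif before their first cysteines and draw neutrophils through the receptors CXCR1 and CXCR2, and CCL20 draws CCR6-bearing lymphocytes and dendritic cells. Inflammatory signals switch these chemokines on in epithelium largely through the transcription factor NF-kappaB. IL7R binds IL-7 and TSLP and signals through JAK and STAT proteins, and ACKR2 is a scavenger that takes up CC chemokines without signalling through G proteins.

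The 5 glutamate-leucine-arginine chemokines lie within 358678 bases of chromosome 4, and their promoters are shown because they carry the same NF-kappaB-type letters while the RNA levels of the genes differed widely. RefSeq (GRCh38.p14) listed promoters for 8 of the 10 genes. Each line below runs 5′ to 3′ on the strand of the gene, with GGAATTTCC in capitals. For 4 genes it holds the 150 bases just before the gene start, taken from RefSeq or from the count table, whichever lies further upstream. For CXCL3, whose start in the count table lies upstream of these letters, only the 30 bases around them are given. CXCL5 was read from chr4:73998678-73998827 on the minus strand, CXCL8 from chr4:73740369-73740518 on the plus strand, CXCL1 from chr4:73869243-73869392 on the plus strand, CXCL2 from chr4:74099197-74099346 on the minus strand and CXCL3 from chr4:74038748-74038777 on the minus strand.
CXCL5: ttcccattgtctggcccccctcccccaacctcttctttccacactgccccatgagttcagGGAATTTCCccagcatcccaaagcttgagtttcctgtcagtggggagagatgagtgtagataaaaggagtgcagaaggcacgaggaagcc
CXCL8: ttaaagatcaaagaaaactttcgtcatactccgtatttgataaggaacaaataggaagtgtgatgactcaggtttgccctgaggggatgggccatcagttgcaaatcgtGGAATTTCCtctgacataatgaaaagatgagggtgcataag
CXCL1: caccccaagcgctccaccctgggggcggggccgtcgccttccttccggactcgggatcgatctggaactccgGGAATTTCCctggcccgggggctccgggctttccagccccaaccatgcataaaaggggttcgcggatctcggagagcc
CXCL2: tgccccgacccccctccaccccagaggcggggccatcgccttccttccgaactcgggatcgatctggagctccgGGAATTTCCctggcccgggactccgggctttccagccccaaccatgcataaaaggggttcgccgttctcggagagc
CXCL3: tggagctccgGGAATTTCCctggcccggcc

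In every one of the 5 promoters the letters GGAATTTCC began between 77 and 91 bases before the RefSeq start (90 in CXCL5, 91 in CXCL8, 78 in CXCL1 and CXCL3, 77 in CXCL2). Searched on both strands, they occurred in the 250 bases before the start of 145 of 35116 RefSeq promoters (0.413%). The AP-1 letters TGANTCA were found in the window of CXCL8, 137 bases before its start, and in 6.57% of all promoters. None of these letters were found in the windows of IL33, IL7R or CCL20. Only these exact letters were searched, so other forms of an NF-kappaB site were not looked for. The count table starts CCL20 at 227805739 and IL7R at 35852695. Their RefSeq promoters begin further downstream, at 227813592 and 35856641, so any promoter at the table's start was not searched. Aligned over the 150 bases before the RefSeq start, the promoters of CXCL1, CXCL2 and CXCL3 were 86.3% to 88.8% identical, and that of CXCL5 was 51.2% to 53.1% identical to them. A match is a description of sequence and not of binding.

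CXCL5 was the most abundant of the 10 genes per length over all libraries, although in LB1 at 0 h its mean was below that of IL18. Its mean over the 46 libraries was 92.0 RPKM (TMM-scaled counts per kilobase of gene and per 1000000 library counts), followed by IL18 at 30.8 RPKM, IL33 at 3.00 RPKM, CXCL2 at 1.31 RPKM and CXCL8 at 1.16 RPKM. CXCL3 (0.358 RPKM), ACKR2 (0.218 RPKM), IL7R (0.111 RPKM), CXCL1 (0.0837 RPKM) and CCL20 (0.0740 RPKM) were near the bottom of what this depth resolves. Much of the CXCL1 mean came from 5 counts in the library of replicate 1 of LB2 at 0 h, and without it the mean was 0.0403 RPKM, below CCL20. The similar promoters of CXCL1 and CXCL2 thus stood before a gene near 0 and a gene at 1.31 RPKM.

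**Figure D1:**
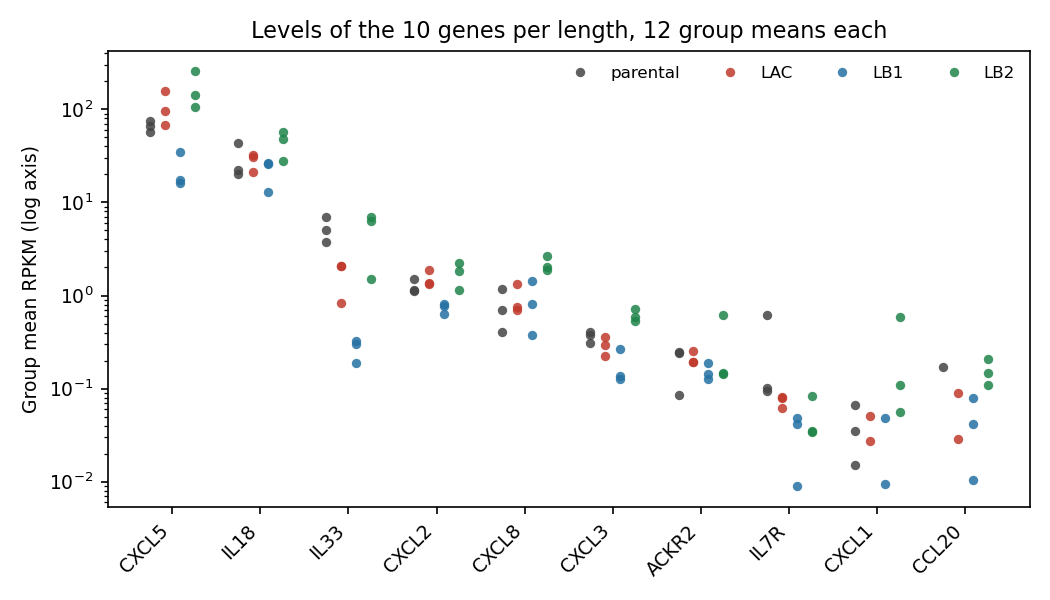
Group mean RPKM (log axis) of the 10 genes, ordered by their mean over the 46 libraries, with 1 point for each of the 12 groups coloured by line; group means of 0 are not drawn. CXCL5 and IL18 lie above the other 8 genes in all 12 groups.

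The tested genes moved in few, repeated ways: CXCL5 rose at 16 h in each tagged line, and IL18 was lower at 96 h in all 4 lines. CXCL5 also moved up in the parental line at 16 h, which was not called (log2 0.40, edgeR adjusted p = 0.0591). An excess of the CXCL5 rise over the parental change was not called in any tagged line. In the parental line at 16 h, 2 of the 5 tested genes fell (IL18 and CXCL8), against 4.78% of all 21484 genes tested, and at 96 h 1 fell (IL18), against 3.84%. At 16 h CXCL5 was the 1 of 5 that rose, in LAC (1.34% of all genes rose there), in LB1 (0.987%) and in LB2 (1.43%). At 96 h IL18 was the 1 of 5 that fell, in LAC (8.64% of all genes fell there), LB1 (2.12%) and LB2 (1.6%). CXCL5 was the 1 of 5 that rose in LAC at 96 h, where 6.74% of all genes rose. With 5 genes tested, these counts say little beyond the genes they name. All calls are edgeR quasi-likelihood tests with a Benjamini-Hochberg adjusted p under 0.05. Over these 8 comparisons 10 of 40 tests were called, 4 higher and 6 lower.

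Before auxin, the tagged lines already differed from the parental line. At 0 h 1 of the 5 tested genes was lower in LAC (IL18), against 7.08% of all genes, 2 were lower in LB1 (CXCL5 and IL18), against 2.43%, and 3 were higher in LB2 (CXCL5, CXCL8 and IL18), against 3.91%. LB1 and LB2 thus stood on opposite sides of the parental line for CXCL5 and IL18. A difference between lines cannot be told apart from a difference between the clones or cultures they came from. When a tagged line's change was compared with that of the parental line, 1 of 30 tests was called: IL18 at 16 h in LAC, against 0.0745% of genes called higher. For the other comparisons of this kind 0 of 5 genes were called, where 7.4% of all genes were called in LAC at 96 h, 0.0279% and 1.04% in LB1 at 16 and 96 h, and 0.00465% and 0.368% in LB2. Of those 30 tests, 14 had an unadjusted p under 0.05, and the DESeq2 test called 5.

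**Figure D2:**
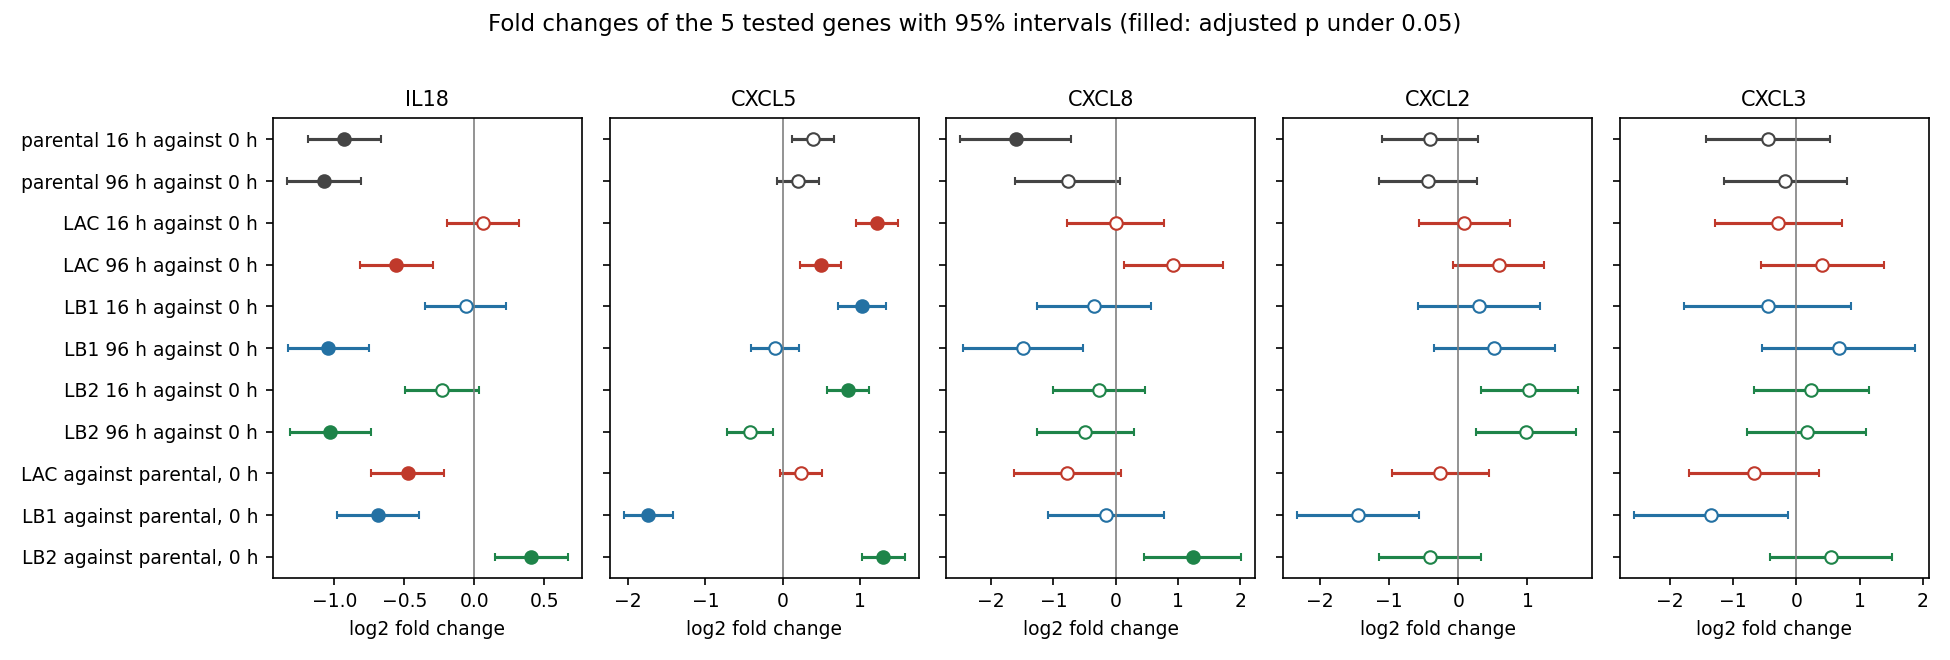
Log2 fold changes of the 5 tested genes with 95% intervals, for auxin-treated against untreated cells of each line (upper 8 rows) and for the tagged lines against parental cells without auxin (lower 3 rows); filled points have an adjusted p under 0.05. CXCL5 is filled to the right at 16 h in LAC, LB1 and LB2, and IL18 is filled to the left at 96 h in all 4 lines.

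IL33, the nuclear alarmin, lies at chr9:6215786-6257983 on the plus strand. At 0 h its RNA was highest in the parental line. It was close to absent in LB1 at all times, and it was higher with auxin in LAC and LB2 at both times and in the parental line mainly at 16 h. At 96 h the LB2 libraries lay above all parental ones. In TMM-scaled counts per 1000000 (CPM), the parental libraries had 11.0, 14.4, 14.0 and 9.43 at 0 h, 20.3, 26.4, 22.2 and 21.3 at 16 h, and 17.0, 15.2, 15.0 and 18.6 at 96 h. Every parental library at 16 h lay above every one at 0 h and at 96 h.

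In LAC the IL33 values were 2.91, 3.44, 1.91 and 2.56 CPM at 0 h, 4.54, 4.70, 7.68 and 10.4 CPM at 16 h and 5.19, 8.39, 6.53 and 6.68 CPM at 96 h. In LB2 they were 4.44, 4.95, 4.23 and 5.86 CPM at 0 h, 21.4, 17.6, 15.2 and 27.9 CPM at 16 h and 28.8, 19.7 and 19.4 CPM at 96 h. Both lines thus started below the parental range, and every library with auxin lay above every one without it. The LB2 value of 15.2 CPM came from 7 counts in the shallowest library. The fitted log2 fold changes at 16 h were 0.88 (SE 0.25) in the parental line, 1.29 (SE 0.29) in LAC and 2.16 (SE 0.29) in LB2, and after 96 h they were 0.42 (SE 0.25) in the parental line, whose 95% interval of -0.08 to 0.92 spans 0, 1.25 (SE 0.29) in LAC and 2.22 (SE 0.29) in LB2.

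LB1 held almost no IL33 at any time: 0.446, 1.99 and 0.736 CPM at 0 h, 0 to 1.04 CPM at 16 h and 0.310 to 1.67 CPM at 96 h, from 0 to 29 counts a library. The 3 LB1 groups overlapped, and all lay below the lowest parental library. At 0 h the fitted log2 difference from the parental line was -2.13 (SE 0.29) in LAC, -4.23 (SE 0.43) in LB1 and -1.35 (SE 0.29) in LB2. IL1RL1, which encodes the IL-33 receptor ST2, had 1 count in all 46 libraries together, while its partner IL1RAP had group means of 5.62 to 13.6 CPM.

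IL18, at chr11:112143253-112164096 on the minus strand, behaved differently: its RNA fell with time in every line, the untagged parental line included. The parental libraries had 133, 106, 105 and 103 CPM at 0 h, 68.1, 60.3, 54.4 and 52.4 CPM at 16 h and 54.3, 54.0, 55.5 and 49.3 CPM at 96 h. The groups with auxin lay wholly below 0 h. After 16 h the log2 fold change was -0.93 (SE 0.13, edgeR adjusted p = 1.28e-05), and after 96 h it was -1.07 (adjusted p = 3.97e-07).

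In the tagged lines IL18 had not fallen by 16 h under this test, and it was lower at 96 h. LAC went from 79.9 ± 17.3 CPM (SD, n = 4) at 0 h to 84.2 ± 6.86 at 16 h and 54.7 ± 3.68 at 96 h, LB1 from 69.0 ± 4.72 (n = 3) to 66.8 ± 8.94 and 33.7 ± 5.63, and LB2 from 147.8 ± 19.7 to 125.1 ± 17.5 and 73.0 ± 8.83 (n = 3). By edgeR the 96 h log2 fold changes were -0.56 (adjusted p = 0.00279) in LAC, -1.04 (adjusted p = 2.47e-06) in LB1 and -1.03 (adjusted p = 5.41e-06) in LB2. The 96 h groups lay wholly below the 0 h groups in all 3 lines. The LAC call was lost with only the compared groups in the fit and with no filter on low counts.

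The log2 response of IL18 at 16 h was 0.99 higher in LAC than in parental cells (edgeR adjusted p = 0.00616). This difference rested on single libraries: without replicate 1 of the parental line at 0 h, or without replicate 2 of LAC at 16 h, it was no longer called, and over all alternatives the adjusted p ranged from 0.000187 to 0.0712. The same difference was 0.87 in LB1 (adjusted p = 0.0906, called in 3 of 23 alternatives) and 0.70 in LB2 (adjusted p = 0.622), neither called. Against the parental line at 0 h, IL18 was lower in LAC (log2 -0.48, adjusted p = 0.0104) and LB1 (-0.69, adjusted p = 0.00183) and higher in LB2 (0.41, adjusted p = 0.0460). In LB2 10 of 16 alternatives did not call it, among them leaving out replicate 2, 3 or 4 of either group, and the LAC call was lost without replicate 1 of either group at 0 h, with no filter on low counts and with only the compared groups.

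**Figure D3:**
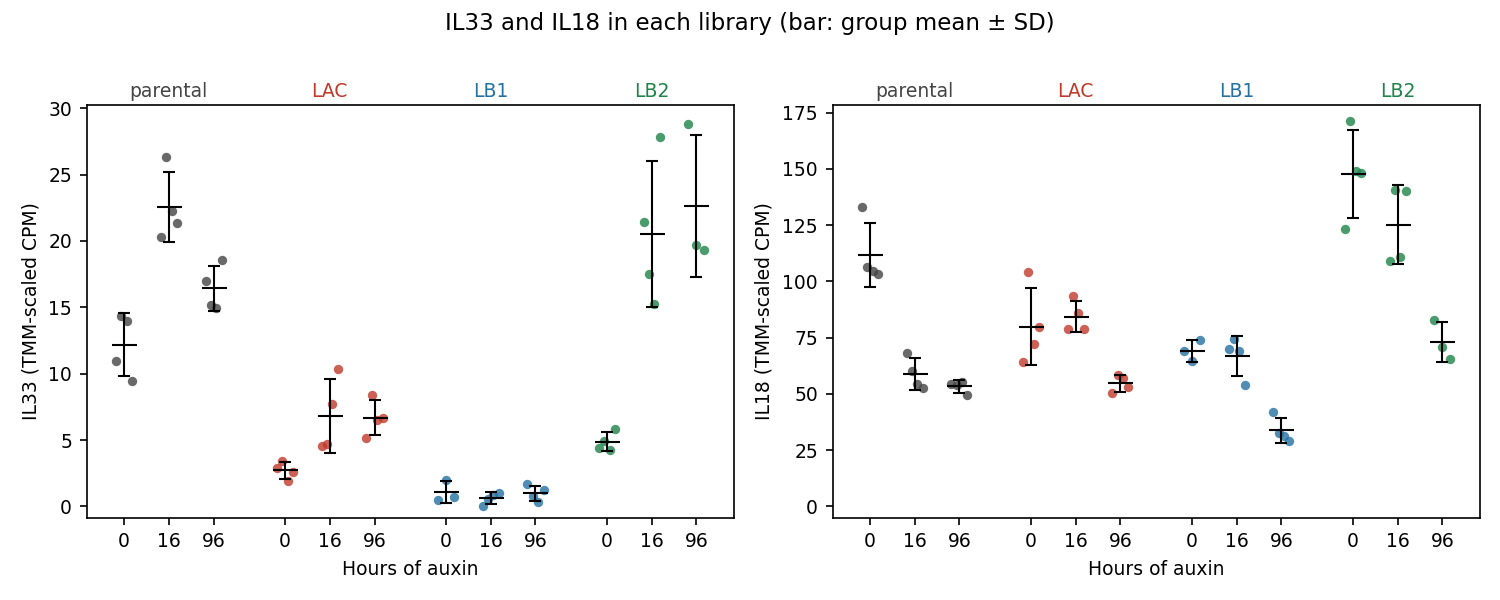
IL33 (left) and IL18 (right) in TMM-scaled CPM for each of the 46 libraries, by line and hours of auxin; points are libraries and bars are the group mean ± SD. IL33 sits near 0 in LB1 at all times and above its 0 h values in LAC and LB2 with auxin, and IL18 at 96 h sits below 0 h in every line.

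CXCL5, a neutrophil attractant, lies at chr4:73995642-73998677 on the minus strand. Across the 12 groups it spanned a wide range, from 39.2 CPM in LB1 at 96 h to 621 CPM in LB2 at 16 h, and at each time the group means ran from LB2 through LAC and the parental line down to LB1. LAC and the parental line overlapped at 0 h, and LAC and LB2 overlapped at 96 h. The parental libraries had 156, 137, 126 and 139 CPM at 0 h, 188, 173, 183 and 193 CPM at 16 h and 135, 179, 167 and 163 CPM at 96 h. LAC had 157, 199.9, 145 and 154 CPM at 0 h, 398.4, 284, 451 and 398.3 CPM at 16 h and 196, 214, 269 and 244 CPM at 96 h. In LAC the 16 h group lay wholly above the other times, which overlapped each other.

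LB1 libraries had 39.8, 43.2 and 43.4 CPM of CXCL5 at 0 h, 81.1, 74.8, 103 and 82.9 CPM at 16 h and 52.8, 28.7, 38.2 and 37.2 CPM at 96 h. LB2 libraries had 363, 343, 347 and 327 CPM at 0 h, 637, 623, 707 and 519 CPM at 16 h and 245, 269 and 259 CPM at 96 h. In both lines the 16 h libraries were the highest without overlap. In LB1 the 96 h libraries were back among those of 0 h, and in LB2 they lay below them.

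The rise of CXCL5 at 16 h was 1.22 on the log2 scale in LAC (SE 0.14, edgeR adjusted p = 7.93e-08), 1.03 in LB1 (SE 0.16, adjusted p = 0.000221) and 0.84 in LB2 (SE 0.14, adjusted p = 0.000234). The LB2 call was lost when only the compared groups entered the fit (adjusted p = 0.389). In the parental line the change was 0.40 (adjusted p = 0.0591), and 4 of 16 alternatives called it, among them leaving out replicate 1 at 0 h, although its 4 libraries at 16 h all lay above those at 0 h. The difference of the 16 h change from the parental line was 0.82 in LAC (adjusted p = 0.0738, called in 5 of 24 alternatives, among them leaving out replicate 2 of LAC at 0 h or at 16 h), 0.63 in LB1 (adjusted p = 0.562) and 0.44 in LB2 (adjusted p = 0.885). A rise that exceeds the parental one was therefore not called in any of the 3 lines by this fit.

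From 16 to 96 h CXCL5 fell by 0.73 on the log2 scale in LAC (adjusted p = 0.000409), by 1.12 in LB1 (adjusted p = 1.25e-07) and by 1.26 in LB2 (adjusted p = 7.14e-07), in edgeR comparisons added after the values were seen. IL18 fell over the same interval by 0.62, 0.98 and 0.80, and these were the 2 of 5 genes called in each line, where 3.22%, 10.9% and 1.45% of all genes were called lower. In the parental line CXCL5 changed by -0.20 (adjusted p = 0.815), and 0 of 5 genes were called there (0.265% of all genes were; 0 of the 5 had an unadjusted p under 0.05, and DESeq2 called 0). At 96 h against 0 h CXCL5 was higher in LAC alone among the called results (log2 0.49, adjusted p = 0.0107), a call lost without replicate 3 of LAC at 96 h, with the GC and length trend removed and with only the compared groups. In LB2 it was -0.42 (adjusted p = 0.112). At 0 h CXCL5 was 3.32 times lower in LB1 than in the parental line (log2 -1.74, adjusted p = 3.34e-11) and 2.47 times higher in LB2 (log2 1.30, adjusted p = 2.23e-09). Both differences were called in every alternative.

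CXCL8, known as interleukin-8, lies at chr4:73740519-73743716 on the plus strand and was a low-count gene, with 0 to 178 counts a library. The parental libraries had 4.87, 2.48, 1.79 and 3.14 CPM at 0 h and 0.819, 0.958, 1.54 and 0.883 CPM at 16 h. The 16 h libraries lay below all of 0 h, and the log2 change was -1.60 (SE 0.45, edgeR adjusted p = 0.0204). That call was lost without replicate 1 at 0 h and without replicate 1 or 2 at 16 h. LB2 had 4.44, 8.22, 8.92 and 6.11 CPM at 0 h, a log2 difference of 1.24 from parental cells (edgeR adjusted p = 0.0426), a call lost in 9 of 16 alternatives, among them the parental libraries 2, 3 or 4 or the LB2 libraries 2 or 3 left out.

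At 96 h CXCL8 had a mean of 3.42 CPM in LAC and 0.975 CPM in LB1, with log2 changes from 0 h of 0.93 (adjusted p = 0.118) and -1.49 (adjusted p = 0.0872), neither called. Its LAC change at 96 h exceeded the parental one by 1.70 (95% interval 0.54 to 2.87, adjusted p = 0.0663), and 4 of 24 alternatives called it.

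CXCL2 (chr4:74097040-74099196, minus strand) and CXCL3 (chr4:74036589-74038807, minus strand) had 1169 and 533 counts over all libraries, and edgeR called 0 of 21 comparisons for either. At an unadjusted p under 0.05 there were 6 for CXCL2 and 1 for CXCL3, and DESeq2 called 1 and 0. The lowest adjusted p of CXCL2 was 0.0523, for LB1 against the parental line at 0 h (log2 -1.45, 95% interval -2.33 to -0.57), and 7 of 15 alternatives called it, among them leaving out replicate 4 of the parental line or replicate 2 of LB1. The LB1 libraries at 0 h had 0.793, 1.99 and 0.460 CPM of CXCL2 and the parental ones 2.44, 1.98, 2.69 and 1.21 CPM, which overlap. In LB2 CXCL2 was 1.598 ± 0.0710 CPM at 0 h and 3.15 ± 0.955 CPM (n = 3) at 96 h, a change of 0.98 that did not pass (adjusted p = 0.145). The lowest adjusted p of CXCL3 was 0.147, for 96 h against 16 h in LB1.

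CXCL1 (chr4:73869393-73871308, plus strand) had 44 counts in all, was at 0 in 28 libraries and reached 5 counts at most. CCL20 (chr2:227805739-227817564, plus strand) had 70 counts, was at 0 in 26 libraries and reached 10. A difference between groups was not detectable for either at this depth. The upper limit for a count of 0 (3 counts) equals 6.26 CPM in the shallowest library and 0.0804 CPM in the deepest, both without TMM scaling. Their low counts differ from CXCL5 in the same RNA: of the chemokine genes between CXCL8 and CXCL2, PF4 had 33 counts, PPBP 9, PF4V1 7 and CXCL6 1. CXCL1, CXCL2 and CXCL3 share sequence. Some of their 50-base words in GENCODE release 29 transcripts also occur in another gene. These were 4.81% of the words of CXCL1, 12.5% of those of CXCL2 and 6.01% of those of CXCL3. The handling of multi-mapping reads was not given, so these shares do not measure how uncertain the split of reads is.

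**Figure D4:**
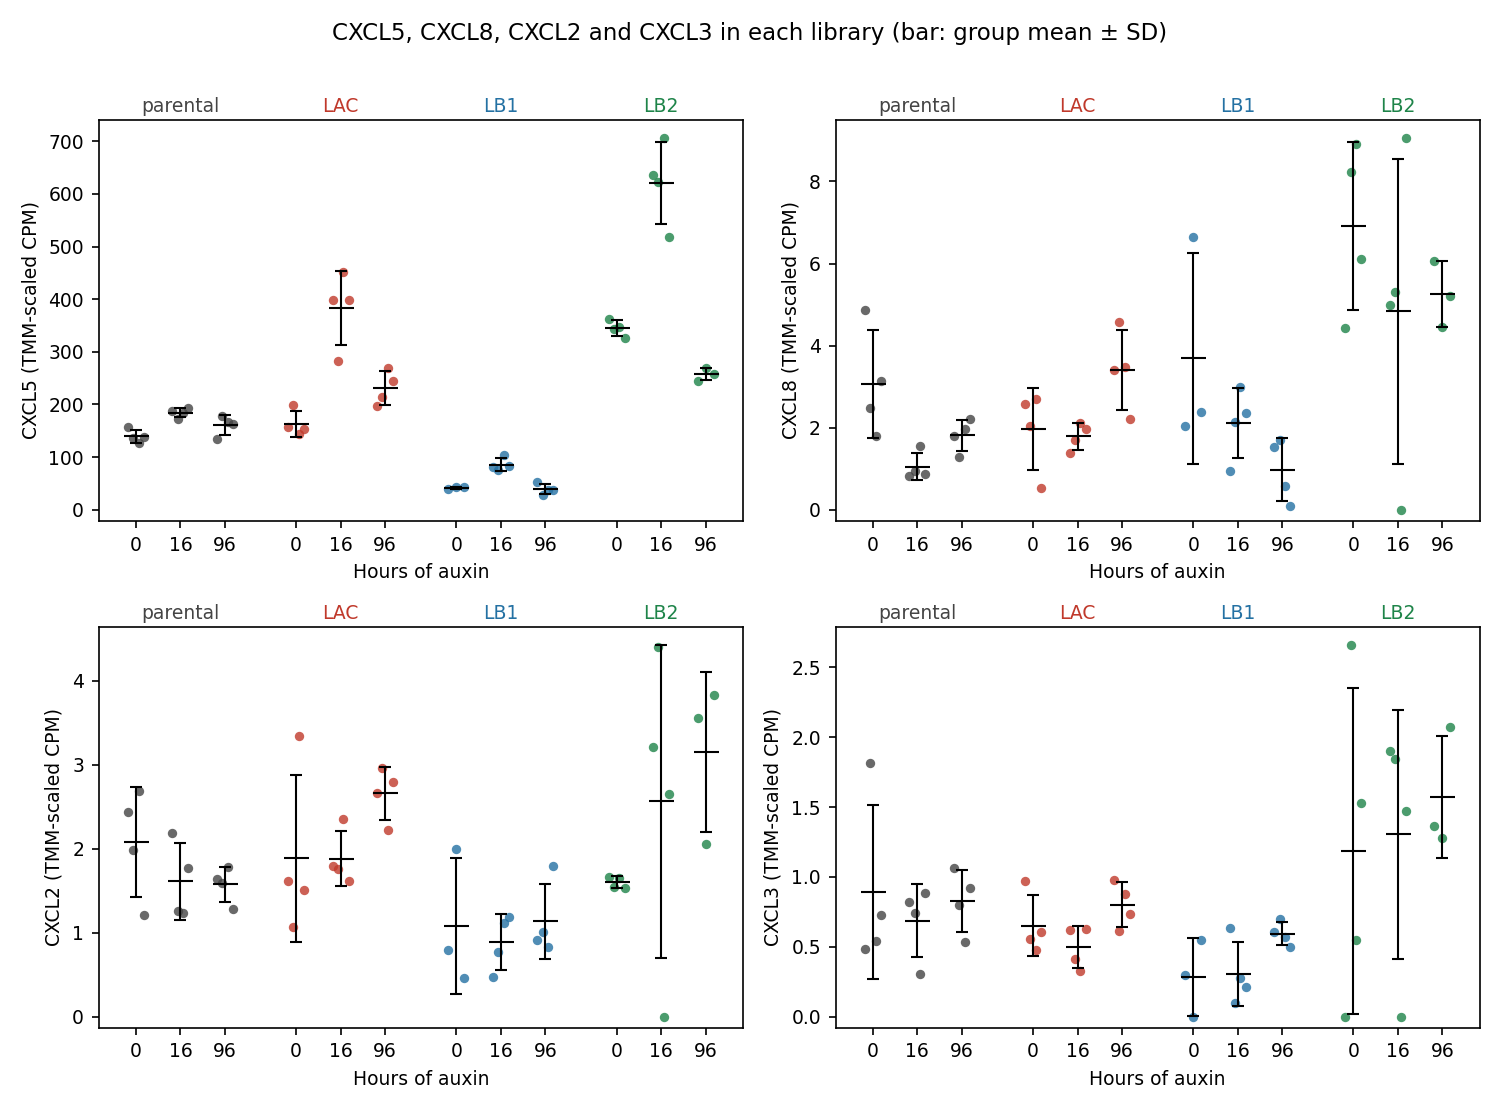
CXCL5, CXCL8, CXCL2 and CXCL3 in TMM-scaled CPM for each library, by line and hours of auxin, each on its own axis; points are libraries and bars are the group mean ± SD. CXCL5 peaks at 16 h in LAC, LB1 and LB2 and is lowest in LB1 at every time, while the other 3 genes stay under 10 CPM.

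IL7R, the IL-7 receptor alpha chain, lies at chr5:35852695-35879603 on the plus strand. It was detected mainly in 1 group, the parental line without auxin. Those 4 libraries had 4.27, 5.12, 2.51 and 3.14 CPM, from 35, 62, 14 and 13 counts. With auxin the parental values were 0.182, 0.602, 0.618 and 0.883 CPM at 16 h and 0.817, 0.598, 0.178 and 0.827 CPM at 96 h. Every one of these 8 libraries lay below the 4 without auxin.

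In the tagged lines IL7R was low at all times, with group means of 0.0538 to 0.504 CPM, and the highest single library had 1.27 CPM. The groups within each tagged line overlapped. The fitted log2 change in the parental line was -2.76 (SE 0.63) after 16 h and -2.56 (SE 0.62) after 96 h, and at 0 h the tagged lines were -2.81 (LAC), -3.17 (LB1) and -2.88 (LB2) from the parental line. The tagged lines without auxin were thus at the level the parental line had with auxin. The ligand IL7 had group means of 0.597 to 3.22 CPM and was called higher in LAC at 96 h (log2 1.32, SE 0.45, edgeR adjusted p = 0.0358). IL2RG and CRLF2, the receptor chains that pair with IL7R, had 114 and 0 counts in all.

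ACKR2, the chemokine scavenger, lies at chr3:42804752-42887974 on the plus strand. Its highest group was LB2 at 0 h, with 7.76, 1.86, 1.84 and 2.04 CPM, and the value of 7.76 came from 14 counts in a library under 5000000 counts. LB2 had 1.30, 0.952, 0 and 0.865 CPM at 16 h and 1.15, 0.780 and 0.478 CPM at 96 h. The 0 came from the shallowest library, where the upper limit for a count of 0 is 6.26 CPM without TMM scaling, so it cannot be placed against 0 h. The other values all lay below 0 h. The fitted log2 change was -1.44 (SE 0.47) after 16 h and -1.84 (SE 0.51) after 96 h. Without the library at 7.76 CPM it was -0.91 (SE 0.45) and -1.28 (SE 0.48). The parental line had 0.244, 1.07, 0.538 and 0 CPM at 0 h and 1.03 to 2.00 CPM at 16 h, which overlap. The remaining groups had means of 0.699 to 1.37 CPM. ACKR2 overlaps 5 other genes of the table, of which 3 lie on its own strand, and 21.0% of its 50-base words occur in transcripts of other genes. Those 5 genes had 0 to 48 counts in all, and reads that fall in 2 genes can be lost from both.

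IL18 and CXCL5 each overlap a gene on the other strand, with means of 0.0573 and 1.45 CPM against 80.2 and 224 CPM. The library kit marks strand, and the strand setting of the counting was not given in the sources used here.

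**Figure D5:**
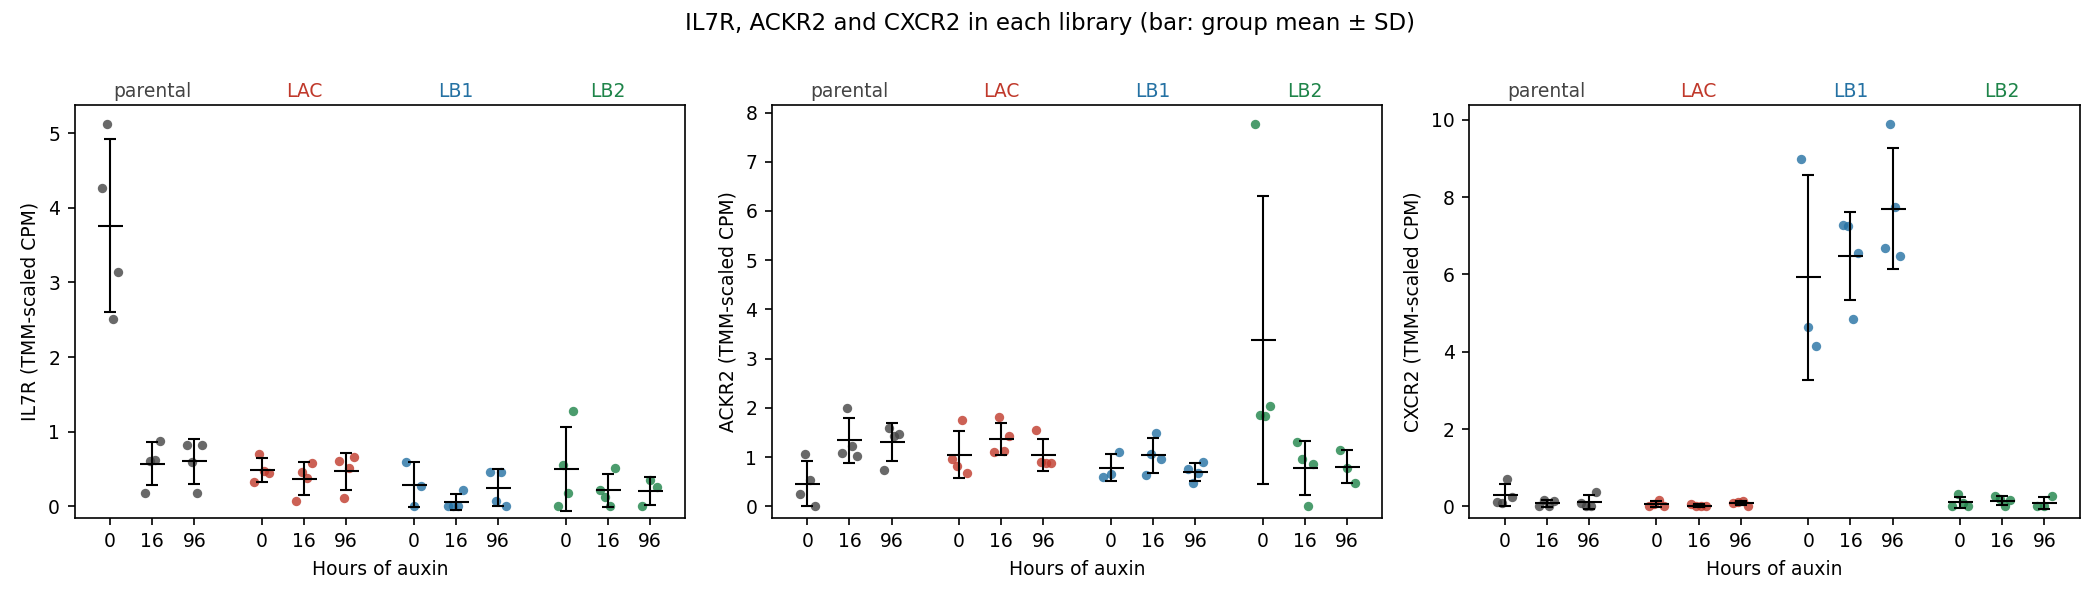
IL7R, ACKR2 and CXCR2, the receptor of the CXCL chemokines, in TMM-scaled CPM for each library, by line and hours of auxin; points are libraries and bars are the group mean ± SD. IL7R is high in the parental line at 0 h, 1 ACKR2 library of LB2 at 0 h stands at 7.76 CPM, and CXCR2 lies between 4.14 and 9.88 CPM in LB1 libraries.

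Of 15 receptors and ligand partners of these genes, 6 were tested. CXCR2, the receptor for CXCL5 and CXCL8, was at 8.97, 4.65 and 4.14 CPM in LB1 at 0 h and at 0.291 ± 0.292 CPM in the parental line (log2 4.63, SE 0.59, edgeR adjusted p = 1.03e-07, called in every alternative). It stayed high in LB1 with auxin, at 6.49 ± 1.14 CPM at 16 h and 7.70 ± 1.56 CPM at 96 h, while no other group had a mean above 0.291 CPM. The line with the least CXCL5 thus had the most CXCR2 RNA. CXCR1, the other receptor, had 31 counts in all and CCR6, the receptor of CCL20, had 38, and both failed the filter. Over the 6 tested genes, 2 were higher in LB1 at 0 h (CXCR2 and IL1RAP), where 1.62% of all genes were higher, and 0 lower, with a median log2 difference of 0.60 against -0.03 over all genes. In LAC 2 of the 6 rose at 96 h (IL7 and ACKR4, log2 1.32 and 1.42), where 6.74% of all genes rose. ACKR4 was lower in LAC at 0 h (-1.51, edgeR adjusted p = 0.0397), where 7.08% were. IL1RAP was the 1 of 6 higher in the parental line at 16 h (4.23% were), a call lost in 9 of 16 alternatives. IL18BP was the 1 of 6 that rose from 16 to 96 h in LB1 (9.53% did).

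Of 27 other epithelial cytokines and chemokines 16 were tested, and in the parental line 2 fell at 16 h and 3 at 96 h, where 4.78% and 3.84% of all genes fell, and 0 were higher at either time, where 4.23% and 3.94% of all genes were. IL32, a proinflammatory cytokine, went from 2.19 ± 0.857 CPM to 0.520 ± 0.412 after 16 h and 0.579 ± 0.473 after 96 h (log2 -2.14 and -2.01, edgeR adjusted p = 0.00297 and 0.00517). These values came from 1 to 21 counts a library. At an unadjusted p under 0.05, 0 and 1 of the 16 were higher. The list medians were -0.24 and -0.26, against -0.04 and -0.03 over all genes. In LB1 at 96 h 3 of the 16 fell, where 2.12% of all genes did, among them CX3CL1, the chemokine fractalkine, by 1.81 (adjusted p = 1.20e-05). In LB2 at 96 h 1 of the 16 fell, where 1.6% of all genes did. It was IL32, by 1.63 (edgeR adjusted p = 0.0165), a call lost in 5 of 15 alternatives. The LAC change at 96 h exceeded the parental one in 3 of the 16, where 7.4% of all genes were called in either direction. Among them was IL32, by 2.79 (adjusted p = 0.0133). In LAC itself 0 of the 16 were called at 96 h against 0 h, where 6.74% and 8.64% of all genes rose and fell. At an unadjusted p under 0.05, 1 was higher there and 3 were lower. IL32 in LAC had 0.647, 0.333, 0.159 and 0.302 CPM at 0 h, from 1 to 9 counts a library. At 96 h it had 0.561, 0.503, 0.417 and 0.807 CPM, from 9 to 12 counts.

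At 0 h IL32 stood in the same order as CXCL5 in LB1 and LB2: lower than in the parental line in LB1 (log2 difference -4.04, edgeR adjusted p = 4.13e-05) and higher in LB2 (1.54, adjusted p = 0.00956). In LAC the log2 difference was -2.68 (adjusted p = 0.000215). Of the 16 tested genes, LAC had 4 lower at 0 h, LB1 had 2 lower, and LB2 had 1 lower and 2 higher. Of all genes 7.08% were lower in LAC, 2.43% lower in LB1, and 4.3% lower and 3.91% higher in LB2. The median log2 differences were -0.24, -0.27 and 0.16, against -0.06, -0.03 and -0.03 over all genes.

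All 20 NF-kappaB subunits and feedback genes were tested. At 16 h, when CXCL5 was highest in the tagged lines, edgeR called 1 of 20 lower in LAC (0.447% of all genes were lower), 1 higher in LB1 (0.987% were higher) and 0 in LB2 (1.81% were called in either direction). At an unadjusted p under 0.05 there were 5, 3 and 4. The called gene was NFKBIB in both lines, an inhibitor of NF-kappaB, and its call was lost in 10 of 16 alternatives in LAC and in 7 of 15 in LB1, among them leaving out any 1 LB1 library of 0 h or any 1 LAC library of 16 h. NFKBIA, the inhibitor that NF-kappaB itself induces, had group means of 39.3 to 56.4 CPM, and TNFAIP3 of 5.50 to 8.80 CPM. In parental cells 2 of 20 were higher after 16 h and 1 after 96 h, where 4.23% and 3.94% of all genes were. At 16 h the median log2 change of the list was -0.10 for LAC, 0.11 for LB1 and 0.05 for LB2, against -0.02, -0.01 and -0.02 over all genes.

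More of the NF-kappaB list was called at 96 h in LAC, where 5 fell and 1 rose, against 8.64% and 6.74% of all genes. NFKB2, a subunit, fell there by 0.89 (edgeR adjusted p = 0.00146), a call lost with only the compared groups in the fit. From 16 to 96 h in LB1, the interval in which CXCL5 fell there by 1.12, 8 of 20 were lower and 2 higher, against 10.9% and 9.53% of all genes, with a list median of -0.33 against 0.08. Among them were NFKB2 (log2 -1.02, edgeR adjusted p = 0.000278) and RELB, another subunit (-1.15, adjusted p = 0.000317). Both were called in all 16 alternatives. Over the same interval 1 of 20 was higher in LAC, and 0 were called in LB2 (3 at an unadjusted p under 0.05) and in the parental line (3), while CXCL5 fell in LAC and LB2. Of all 21484 genes tested, 1133 were called in either direction in LAC, 537 in LB2 and 57 in the parental line, so few of 20 would be called at those shares. The list medians over this interval were -0.03 in LAC, -0.04 in LB2 and 0.0007 in the parental line. Over all genes they were 0.02, 0.02 and 0.003. A link between these genes and CXCL5 was not tested.

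Of 11 inflammasome genes that process IL-18, 7 were tested. CASP1, whose product cleaves the IL-18 precursor, had 1 count in all 46 libraries, and AIM2 had 4. CASP4 had group means of 10.8 to 24.7 CPM and GSDMD, which forms the pore for release, of 27.5 to 44.2 CPM. In the parental line 2 of the 7 tested genes were lower and 1 higher after 16 h, where 4.78% and 4.23% of all genes were. After 96 h 1 was lower and 1 higher, where 3.84% and 3.94% of all genes were. NLRP1, an inflammasome sensor, fell there like IL18, with log2 changes of -1.65 after 16 h (edgeR adjusted p = 0.00817) and -1.83 after 96 h (adjusted p = 0.00344). PYCARD was lower after 16 h (-3.00, adjusted p = 0.0243). CASP8 was higher at both times, by 0.47 (adjusted p = 0.00731) and 0.41 (adjusted p = 0.0195). The 16 h call of NLRP1 was lost without replicate 1 or 2 at that time. That of PYCARD was lost in 6 of 15 alternatives, and that of CASP8 without parental replicate 4 at 0 h.

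All 12 JAK and STAT genes downstream of the IL-7 receptor were tested. At 96 h 2 of 12 rose in the parental line, in LAC and in LB2, BCL2 and STAT5B in each, where 3.94%, 6.74% and 1.95% of all genes rose. BCL2, a survival gene, had log2 changes of 1.12, 1.24 and 1.14 (edgeR adjusted p = 0.0107, 0.000685 and 0.0123), and STAT5B of 0.46, 0.57 and 0.81 (adjusted p = 0.0397, 0.00521 and 0.00108). The parental call of STAT5B was lost in 9 of 16 alternatives, among them leaving out replicate 1 or 3 at 0 h or replicate 2, 3 or 4 at 96 h. That of BCL2 was lost without parental replicate 4 at 0 h, and in LB2 without replicate 3 at 0 h or 1 at 96 h. With only the compared groups in the fit, the STAT5B calls in LAC (adjusted p = 0.0509) and LB2 (0.116) and the BCL2 call in LB2 were lost as well. In LB1 2 of 12 fell at 96 h, where 2.12% of all genes did, among them STAT3 by 0.62 (adjusted p = 0.00150), a call lost with no filter on low counts.

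Genes with the most similar pattern over the 46 libraries, by Pearson's r of log2 CPM among 14006 genes with a symbol and at least 1 CPM, were ANKH (r = 0.91), SEMA5A (0.88) and SAMD9 (0.88) for IL33, TXNRD1, CNN3 and CTNNAL1 (each 0.91) for IL18, and SLC1A3 (0.94), CCT5 (0.92) and CCRL2 (0.90) for CXCL5. For CXCL8 they were TFPI, SDCBP2 and KLHL7 (0.76 to 0.72), for CXCL2 RGS2, P2RY2 and ZNF532 (0.78 to 0.75) and for ACKR2 YARS2, TMEM171 and RTN4RL2 (0.69 to 0.64). By Spearman's measure 2 of the 3 neighbours of IL33 and of IL18 and 1 of CXCL5 came up again, and 0 for the rest. The libraries share lines and times, so these values describe the 12 groups more than 46 separate points. Among the 8 genes that passed the filter the closest pairs were IL33 with CXCL5 (r = 0.68) and IL18 with CXCL5 (0.64), and IL7R with ACKR2 was the lowest (-0.19).

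The cells carried epithelial RNA. The 9 colorectal epithelial markers summed to 5473 to 12580 CPM a library, with CDX1 at 0 in 40 libraries and VIL1 at a mean of 1.41 CPM. Markers of other cells that use these cytokines were low. The 9 leukocyte markers summed to 0 to 8.68 CPM, with CD3D at 0 in all libraries and PTPRC at 0 in 30. CD14 (mean 2.49 CPM) was at 0 in only 2 libraries and CSF1R (mean 1.83 CPM) in only 1. The fibroblast genes COL1A2 and DCN were at 0 throughout, while COL1A1 (mean 1.47 CPM) was at 0 in only 1 library. The 5 endothelial markers summed to 2.18 to 35.4 CPM, nearly all VWF and PROX1, with CDH5 at 0 in 37 libraries. In bulk RNA, fewer cells that express a gene and less RNA of it per cell cannot be told apart.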

How the data were processed

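RNA-seq of 46 DLD-1 libraries was used as the raw counts per gene that the authors deposited in 1 table. Per the labels' protocols, libraries were made with a stranded total RNA kit after ribosomal depletion and sequenced in pairs. Per the file headers, counting used featureCounts 1.6.4; the submitters' processing notes also list STAR 2.7.10a, SAMtools 1.10, deepTools 3.4.5, DESeq2 1.40.2 and GRCh38. The strand setting and the handling of multi-mapping reads, which can move counts between overlapping genes and near copies, were not given in the sources used here. All columns were matched by name, and 1 gene broken over 3 lines was left out.

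Counts were fitted with edgeR 4.0.16 in R 4.3.3: quasi-likelihood F-tests, all 46 libraries, 1 coefficient for each of 12 groups, TMM scaling and filterByExpr by group, which left 21484 genes. P-values are two-sided and Benjamini-Hochberg adjusted over those genes, with calls under 0.05. There were 17 comparisons, and 4 (96 h against 16 h) were added after the values were seen. The fit was checked on simulated counts. CPM are TMM-scaled, RPKM divide them by the gene length of the table, and SDs are over libraries. Limits from 3 counts use the library total without TMM scaling and cover counting error only. DESeq2 1.42.0 and the other alternatives are in the closing section. Replicate numbers mark wells, and the main fit did not pair libraries across groups by them.

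Members, lists and markers were chosen with earlier results of these data known. All 10 members are named, and from each of 5 lists at most 4 genes with the lowest p among those called in a comparison, with others given by level alone; the genes most like a member are the 3 with the highest Pearson's r. Promoters are from RefSeq, shared 50-base words from GENCODE release 29 transcripts.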

Additional observations from a re-analysis of the deposited data

Results flagged for a closer look

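A sample far from the others of its group was looked for in the 8 genes that passed the filter, over 80 sets of 4 libraries, by Dixon's test. Chance alone gives about 1 such set in 20, and 4 were found. For IL18 in the parental line at 0 h, replicate 1 had 133.2 CPM and the others 103.4 to 106.4 CPM. For ACKR2 in LB2 at 0 h, replicate 1 had 7.76 CPM from 14 counts and the others 1.84 to 2.04 CPM, and in LAC at 96 h replicate 1 had 1.54 CPM from 33 counts and the others 0.880 to 0.895 CPM. For IL7R in LB1 at 16 h, replicate 4 had 0.215 CPM from 6 counts and the others 0.

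A difference between lines in the response was called once: the log2 change of IL18 at 16 h in LAC exceeded that of parental cells by 0.99, by edgeR's test of the difference itself (adjusted p = 0.00616). It was no longer called without the parental library at 133.2 CPM.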

How the results depend on the processing

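Of 23 called results of the tested genes, 15 stayed called in every alternative, and 13 of 23 uncalled results printed stayed uncalled; none changed direction. Of the 30 differences from the parental response, 1 was called, and 3 with RLE scaling, 4 with library size only, 5 with DESeq2, and 2 each with no low-count filter, with the GC and length trend removed, without the libraries under 5000000 counts and with only the compared groups. With 1 library left out it was 0 to 3: 0 without parental replicate 1 at 0 h and 3 without LAC replicate 2 at 0 h. Of the 15 differences at 0 h, 6 were called, 3 with only the compared groups and 4 to 7 with 1 library left out. Leaving out 1 library gave 9 to 10 of the 40 responses and 6 to 7 of the 20 late changes. With the replicate number as a block, 10 responses, 1 difference from the parental response, 5 differences at 0 h and 6 late changes were called. Same-numbered libraries of different groups had a mean correlation of deviations of 0.07 (-0.71 to 0.84), and differently numbered ones of -0.01 (-0.79 to 0.81). These values are pooled over all lines, and pairing within a line was not tested. RLE scaling and library size only moved the median of all genes in the parental line at 16 h to -0.14 and -0.15 on the log2 scale, from -0.04, with the direction of each printed change kept. Depth limits CXCL1, CCL20, IL7R and ACKR2 most.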
